A study of Mus musculus with 8 samples.

Results

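The cells described here are Il7r-positive CD8 T cells of mouse tumours grown from Hepa1-6, a hepatoma cell line, whose transcripts were counted cell by cell from their 3′ ends in droplets. They were chosen by values of the deposited table, which are natural logs of scaled counts in the first of its 6 sets of cells. A CD8 T cell had a mean value of at least 0.8 over Cd8a and Cd8b1, at least 0.8 over Cd3d, Cd3g and Trbc2, under 0.5 for Cd4 and under 0.8 over the macrophage genes C1qa and C1qb. A member had in addition an Il7r value of at least 1, a Havcr2 value under 0.5, an Xcl1 value under 1.5 and a mean under 0.8 over the cell cycle genes Pclaf, Rrm2, Ube2c and Cenpf. This gave 365 members of 9973 CD8 T cells and of 53528 cells in all. The labels give 4 groups: tumours of unedited Hepa1-6 cells with intraperitoneal PBS, the same tumours with PD-1 antibody, which blocks a checkpoint receptor of T cells, tumours of Soat1-edited cells with PBS, and Soat1-edited tumours with the antibody. The sample titles speak of a knockout of Soat1 but the genotype entries of a knockdown, and each group has a cDNA and an oligo entry, counted as 1 sample. The strain, sex and age of the animals and the number of animals per group are not given in the sources used here. Soat1 encodes a cholesterol-esterifying enzyme, and the series is about the tumour's immune cells after its loss.

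Cells fall into 6 sets by the last number of their names, and nothing ties a set to a group. No genotype or treatment was therefore compared, no p-value was computed, and the sets stand as unassigned samples, with the range and median. Whether they came from separate animals is unknown. Soat1 was not analysed here. The sets held 7569 to 11813 cells. Set 1 stands apart from the others: its values give back whole UMI counts (UMIs, or unique molecular identifiers, mark single captured molecules), and none is below 0. In sets 2 to 6 every cell had values below 0 through a step no label records, so differences of mean values are given there, on the natural log scale, and no folds. Results over 6 sets are given without set 1 where it decides them. Leaving the set number aside, 12741 of 22421 cell names occurred in more than 1 set. These names are serial numbers and not barcodes, so shared barcodes could not be counted.

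Il7r encodes the alpha chain of the receptor for interleukin 7, a cytokine that keeps naive and memory T cells alive. Naive and long-lived memory CD8 T cells carry the receptor, and most recently activated effector cells lose it. In tumours, CD8 T cells under lasting antigen stimulation come to carry inhibitory receptors such as PD-1 and Tim-3, which is encoded by Havcr2. Il7r-bearing cells without Tim-3 are therefore often looked at as candidates for memory, bystander or less differentiated states. The transcription factor genes Tcf7 and Lef1, commonly used to tell such states apart, are not among the 2000 genes analysed here.

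Members made up 3.66% of CD8 T cells (exact Clopper-Pearson 95% interval 3.30% to 4.05%, counting error only) and 0.682% of all cells. Set 1 held 31 members, set 2 held 62, set 3 held 57, set 4 held 72, set 5 held 49 and set 6 held 94. As a share of CD8 T cells this was 2.95%, 4.69%, 3.00%, 3.76%, 3.72% and 3.81% for sets 1 to 6. The highest share was in set 2 and the lowest in set 1, and their counting intervals (3.61% to 5.97% and 2.01% to 4.16%) overlapped.

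An Il7r value of at least 1 was found in 1062 CD8 T cells, and most of these were not members. The Havcr2 limit removed 566 of them, the Xcl1 limit 125 and the cell cycle limit 149, with 135 cells beyond 2 or more limits, and 34.4% were left as members. Among the CD8 T cells that passed all 3 limits, 13.5% had such an Il7r value (median of the sets 13.6%, range 9.69% to 16.3%). The share was 11.7% in Havcr2-positive noncycling cells (8.90% to 13.3% over the sets), 10.9% in Xcl1-high cells (7.27% to 17.2%) and 5.52% in cycling cells (3.90% to 8.65%). The ranges of the cells passing all limits, the Havcr2-positive and the Xcl1-high cells overlapped. The cycling cells lay lower than the cells passing all limits in each of the 6 sets. Xcl1-high cells had no cell cycle limit and Havcr2-positive noncycling cells no Xcl1 limit, so these states can share cells. In conventional CD4 T cells, taken as Cd4-positive, Foxp3-low T cells, the share was 25.1% (20% to 31.8%), above every CD8 state's range.

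**Figure D1:**
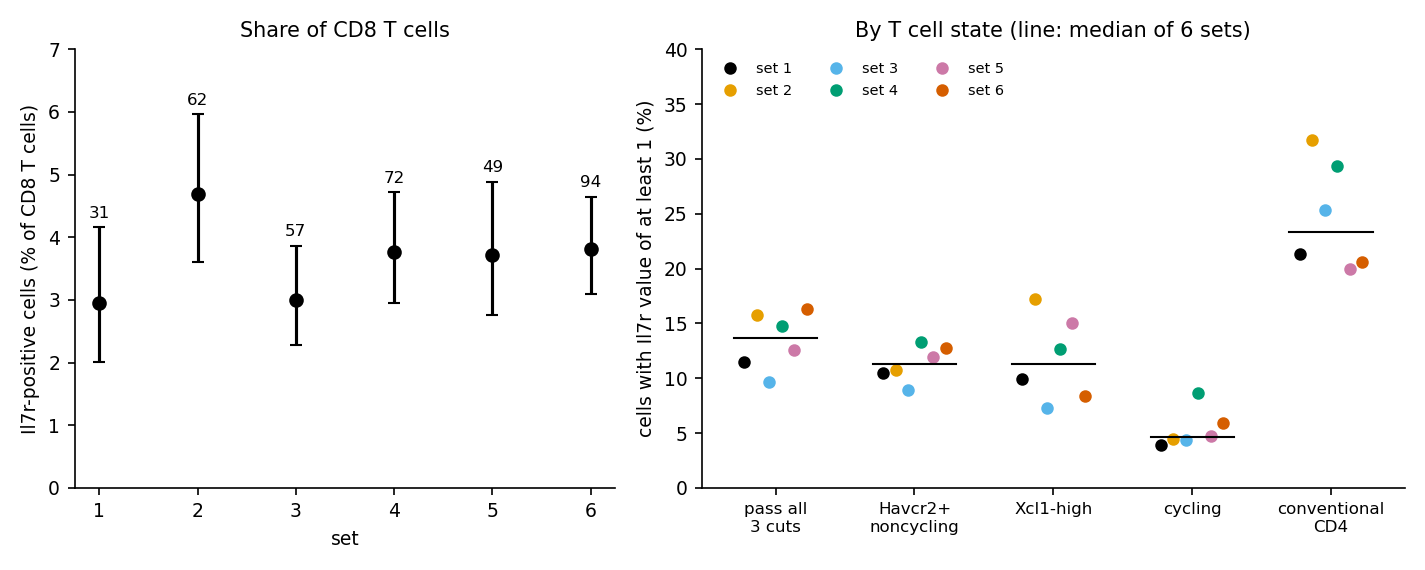
The left plot gives members as a percentage of CD8 T cells in each set, with exact 95% binomial intervals and the number of members above each point. The right plot gives the percentage of cells with an Il7r value of at least 1 in 5 T cell states, a point per set and a line at the median. Cycling cells lie between 3.90% and 8.65%, and the cells that pass all 3 limits between 9.69% and 16.3%.

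Depth was known for every cell of set 1, where it bears on the rule. Members of set 1 had a median of 3369 UMIs per cell and the other 1021 CD8 T cells had 5308. Cycling CD8 T cells had 8691. The 240 Il7r-low counterparts, which are CD8 T cells that pass the same Havcr2, Xcl1 and cell cycle limits with an Il7r value under 1, had 3137. Members of set 1 were thus shallower than other CD8 T cells and close in depth to the counterparts. A single Il7r UMI passes the limit only in a cell of up to 5819 UMIs. Of the 31 members, 19 had 1 Il7r UMI, 8 had 2 and 4 had 3 or more, and 5 cells with an Il7r UMI but a value under 1 were held out, at a median of 6990 UMIs. In the other sets a total could be read for part of the cells only. Among those, the median was 3131 in members and 2747 in counterparts of set 2, 3252 and 1998 in set 3, 3269 and 3389 in set 4, 2352 and 2213 in set 5, and 3693 and 3246 in set 6. With set 1, members were the deeper of the pair in 5 of 6 sets. What these gaps contribute to the differences below was not tested beyond the thinned and depth-matched values given with them.

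The Il7r level itself is a description, since the rule used it. Levels in set 1 are given as CPM, a scaled count in which the UMIs of a gene are divided by all UMIs of the same cells. Summed over set 1, Il7r stood at 469 CPM in members (51 UMIs in 31 cells, exact Poisson interval 349 to 617 CPM). It was 33.5 CPM in other CD8 T cells and 7.12 CPM in the counterparts. Regulatory T cells had 136 CPM (interval 88.7 to 199) and conventional CD4 T cells 104 CPM (73.7 to 143), which overlap. Macrophages had 12.9 CPM. Cells low in T cell, myeloid and fibroblast genes, which serve as background for free RNA, had 0.643 CPM. The median Il7r value of members was 1.69, 1.94, 1.58, 1.53, 1.66 and 1.55 for sets 1 to 6. Just inside the limit, 57 members had Il7r values from 1.00 to just under 1.2, with mean values of 1.195 for Gzmb and 2.04 for Ccl5. Just outside it, 52 counterparts had Il7r values from 0.801 to 0.995, with mean values of 1.525 for Gzmb and 2.04 for Ccl5.

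**Figure D2:**
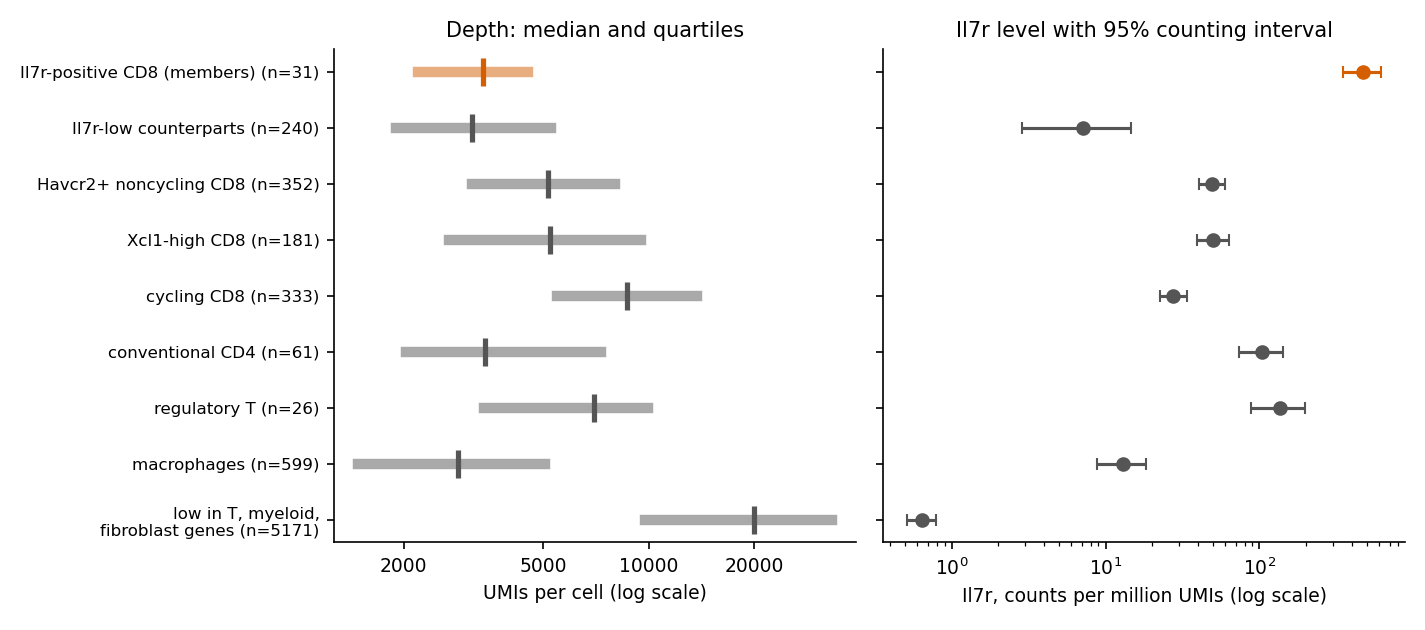
Set 1 only: the left plot gives UMIs per cell on a log axis (mark: median, bar: lower to upper quartile) for 9 cell classes, and the right plot the Il7r level in CPM on a log axis with exact 95% Poisson intervals. Members and their Il7r-low counterparts have similar median depths (3369 and 3137 UMIs), and members have the highest Il7r level of the 9 classes, by the rule, at 469 CPM.

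The labelled identity was checked against markers. In set 1, members had 873 CPM of Cd8a, 727 CPM of Cd8b1 and 766 CPM of Cd3d, the co-receptor and CD3 chains the rule asked for. Cd4 was at 0 UMIs, which the rule's limit on Cd4 fixed in advance for cells of this depth (at most 11506 UMIs). The T cell receptor constant genes Trac and Trbc1, which the rule did not use, gave 40 and 93 UMIs in 30 members. Markers of other cells were read in the same members. Natural killer (NK) cell markers had UMIs for 5 of 8 genes, 582 CPM in members and 598 CPM in counterparts, with the defining Ncr1 and Klrb1c at 0. Of 8 macrophage genes 4 had UMIs, at 485 CPM in members and 615 CPM in counterparts. Apoe gave 33 of the 50 UMIs in members. Lyz2, Ms4a7 and C1qb were at 0, but the rule itself limited C1qa and C1qb. The summed mean values of this list, 1.93 to 2.42 in members and 1.52 to 2.13 in counterparts, were higher in members in 5 of 6 sets. Apoe alone had mean values of 1.21 to 1.43 in members and was higher than in counterparts in 4 of 6 sets. In set 1 all 6 dendritic cell genes were at 0. Hepatoma genes such as Afp and Alb had UMIs for 5 of 8 genes, at 1018 CPM in members, 989 CPM in other CD8 T cells and 1170 CPM in counterparts, so that the members lay between both comparators.

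The lists for regulatory and CD4 T cells were higher in members than in counterparts. The 6 regulatory T cell genes summed to 1571 CPM in members and 1079 CPM in counterparts of set 1. Their summed mean values were 2.32 to 3.38 over the sets in members and 2.00 to 2.42 in counterparts, and higher in members in 6 of 6 sets. Other CD8 T cells had sums of 2.53 to 2.74, and members were above them in 2 of 6 sets only. Ctla4 gave 107 of the 162 UMIs of these genes in members of set 1. Foxp3, which encodes the defining transcription factor of regulatory T cells, was at 0.5 or more in 16 members (4.38%) and in 18 counterparts (0.768%). The 5 CD4 T cell genes summed to 1.35 to 2.01 in members and 1.29 to 1.45 in counterparts, again higher in 6 of 6 sets. Members were above other CD8 T cells for this list in 5 of 6 sets. Cd4 itself, which the rule limited, was at 0 UMIs in set 1. Several genes reported below (Ctla4, Tnfrsf4, Il2ra, Cd28) belong to these lists, and their differences are also given without the Foxp3-positive cells. Of the 16 Foxp3-positive members none was removed from the main values. B cell genes stood at 116 CPM in members and 35.5 CPM in counterparts, through Ighm (9 UMIs in 7 cells) and Igkc (3 UMIs), with Ms4a1 and Cd79b at 0. Type 2 innate lymphoid or mast cell genes, a list that holds Areg, summed to 194 CPM in members and 82.2 CPM in counterparts and were higher in members in 5 of 6 sets, with the mast cell genes Cpa3 and Mcpt8 at 0. The part of the macrophage, B cell and type 2 lists in the results was not tested.

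Against all other CD8 T cells, members had lower levels of cell cycle genes and of cytotoxic granule genes. In set 1, among 406 genes with at least 5 UMIs expected in members under equal rates, 83 were at least 2-fold lower (20.4%) and 11 at least 2-fold higher (2.71%). The median log2 ratio of those 406 genes was -0.18. Over the 6 sets, the mean value was lower in every set for 425 of 1985 genes outside the rule (21.4%) and higher in every set for 43 (2.17%). The rule kept cycling, Havcr2-positive and Xcl1-high cells out of the members and left them in the comparator. The comparator's cells were also deeper in set 1. Among cells with a readable total they were deeper in sets 2, 4, 5 and 6, but not in set 3 (median 2894 UMIs against 3252 in members). With comparator cells matched on UMI total, 379 genes were tested, of which 66 were at least 2-fold lower and 12 at least 2-fold higher.

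Of 25 cell cycle genes outside the rule, 22 were lower in all 6 sets, among them Mki67, Top2a, Birc5 and Cdk1, a kinase that drives entry into mitosis. The median log2 ratio of the list in set 1 was -1.69. Because 4 genes of the same programme chose the members, this is a description of the rule. The same holds for the genes with the lowest ratios in set 1 (Kif11, Cenpe, Tpx2, Cdca8, Fbxo5, Cdk1, Birc5, Cdc20, Aurkb, Kif22, H2afx and Knstrn), most of them genes of chromosome segregation or cell division, with 1 to 3 UMIs each in members. Birc5, for example, a mitotic survivin gene, stood at 29.1 CPM in members, 276 CPM in other CD8 T cells and 94.4 CPM in counterparts.

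Cytotoxic granule genes were lower than in other CD8 T cells. Of 16 such genes, 9 were lower in 6 of 6 sets (Gzmb, Gzmd, Gzme, Gzmg, Prf1, Nkg7, Serpinb6b, Serpinb9 and Serpinb9b) and none was higher in all 6. The list's median log2 ratio in set 1 was -0.76. The mean Gzmb value, for the protease granzyme B, in members of sets 1 to 6 was 0.930, 1.15, 1.31, 1.04, 0.835 and 1.11. In other CD8 T cells of the same sets it was 1.55, 1.48, 1.41, 1.5, 1.38 and 1.43. All member means lay below the others in each set, and the ranges did not overlap. Within that comparator the Xcl1-high cells had lower Gzmb means than members, at 0.541 to 0.816. Havcr2-positive noncycling cells (1.58 to 1.90) and cycling cells (1.52 to 1.80) had higher ones. In set 1 the Gzmb ratio to other CD8 T cells was 0.406 (interval 0.303 to 0.533) and that of Prf1, which encodes the pore-forming perforin, 0.299 (0.197 to 0.436).

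Against the counterparts, which pass the same exclusion limits, most granule genes had no single direction over the sets. The mean Gzmb value of the counterparts in sets 1 to 6 was 1.35, 1.21, 1.16, 0.981, 0.995 and 0.966. Members were higher in 3 sets and lower in 3, with differences from -0.42 to 0.15. Prf1 differed by -0.63 to 0.05 and was likewise higher in 3 of 6 sets. For both genes the lowest difference was that of set 1, and the ranges of members and counterparts overlapped. In set 1 the Gzmb ratio was 0.608 (0.450 to 0.805) and the Prf1 ratio 0.468 (0.305 to 0.689). At an Il7r limit of 1.5, Prf1 was lower than in counterparts in 6 of 6 sets (median -0.12, range -0.58 to -0.08) and Gzmb in 4 of 6 (median -0.16). Of the 16 granule genes, Nkg7 alone was lower in all 6 sets against counterparts. The share of members with Gzmb and Prf1 both at 1 or more was 32.9% and that of counterparts 31.9%, and neither reached 1 in 31.2% and 27.3%. Of the other effector and checkpoint genes, Ifng was higher than in counterparts in 3 of 6 sets (differences -0.28 to 0.26), and Pdcd1, which encodes PD-1, in 1 of 6 (-0.38 to 0.25). In set 1, 70% of members had a Pdcd1 UMI, against 83.1% of counterparts and 8.42% of the background cells, and 40%, 51.3% and 0.523% after thinning to 1000 UMIs.

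Fewer genes differed in the contrast with counterparts. In set 1, 31 of 348 genes were at least 2-fold lower (8.91%) and 7 at least 2-fold higher (2.01%). Over the 6 sets, 80 of 1985 genes were lower in every set (4.03%) and 50 higher in every set (2.52%). Many of the lower genes lay near 0 in both groups, such as Sox11 and Grin1 (median differences -0.00063 and -0.0019). Some higher genes did too, such as Il4 (0.0045). Members were fewer than counterparts in each set (31 to 94 against 240 to 531), and what this contributes to the counts was not tested. With any 1 set left out, so that 5 sets had to share a direction, 113 to 161 genes were lower and 60 to 80 higher. Both counts were highest without set 1, and the lower genes numbered 137 without set 3 and 126 without set 5. Without Foxp3-positive cells 88 were lower and 39 higher. All comparisons with counterparts that leave out a set or cells, or raise the Il7r limit for single genes, were chosen after the data had been seen.

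Chemokine genes of the activated CD8 T cell were the genes with the largest differences in the lower direction. They encode secreted proteins that draw in other leukocytes. The mean Ccl5 value in members of sets 1 to 6 was 1.86, 1.56, 2.14, 1.81, 2.15 and 1.60. In counterparts it was 2.54, 2.36, 2.41, 2.47, 2.56 and 2.06. Members were lower in 6 of 6 sets, with a median difference of -0.56 (range -0.81 to -0.27), and the 2 ranges overlap only between 2.06 and 2.15. Low Ccl5 was not particular to members among CD8 states. Every mean of Xcl1-high cells (0.814 to 1.22) and of cycling cells (0.854 to 1.44) lay below every member mean. Havcr2-positive noncycling cells had 2.23 to 2.56. Ccl5 was named after its values had been seen. The summed counts of set 1 showed a smaller gap: 227 Ccl5 UMIs in 18 of 30 members, 64 of them in 1 cell, gave a ratio of 0.844 (0.733 to 0.968) to counterparts. Against other CD8 T cells that ratio was 1.72 (1.5 to 1.96), while the mean Ccl5 value was lower than theirs in 4 of 6 sets.

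Ccl3 had mean values of 0.416, 0.487, 0.828, 0.496, 0.671 and 0.520 in members of sets 1 to 6. Counterparts had 0.996, 0.963, 0.948, 1.02, 0.904 and 0.688. The ranges overlapped between 0.688 and 0.828. The difference was between -0.58 and -0.12, and in set 1 the ratio was 0.497 (0.300 to 0.780; 20 UMIs in 6 cells). Ccl4 differed by -0.56 to -0.02, lower in 6 of 6 sets, with a ratio of 0.522 (0.395 to 0.677; 60 UMIs in 18 cells). Both were also lower than in other CD8 T cells in every set, with median differences of -0.48 for Ccl3 and -0.28 for Ccl4. Of 14 cytokine and chemokine genes, 3 were lower than in counterparts in 6 of 6 sets (these 3), and Lta and Tnfsf11, which encode lymphotoxin alpha and RANKL, were higher in 6 of 6.

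Cxcr6, a chemokine receptor of tissue-resident and tumour-infiltrating T cells, had mean values of 1.65, 1.60, 1.74, 1.84, 1.83 and 1.74 in members. In counterparts they were 2.13, 1.95, 1.95, 1.93, 2.03 and 1.87, so that every member mean lay under every counterpart mean. The median difference from counterparts was -0.20, and the set 1 ratio 0.714 (0.559 to 0.900, on 78 UMIs in 22 cells). Xcl1-high cells had Cxcr6 means of 1.48 to 1.68 and cycling cells 1.48 to 1.62, which reach below those of members. Havcr2-positive noncycling cells had 2.05 to 2.20. Nkg7, a granule membrane protein gene, was lower in every set, with a median difference of -0.19 (-0.47 to -0.04), but its summed counts in set 1 gave a ratio of 0.941 (0.769 to 1.14). Tox, a transcription factor gene tied to T cell exhaustion, had a median difference of -0.17, from -0.39 in set 1 to -0.01 in set 5. Its ratio in set 1 was 0.505 (0.304 to 0.791). Itga4, an integrin alpha chain, differed by -0.36 in set 1 and by -0.00065 in set 4, the ends of its range. Tcrg-C2, a gamma chain constant gene of the T cell receptor, had a ratio of 0.282 (0.112 to 0.590) on 7 UMIs in 4 members, and its difference was largest in set 1. Ikzf3, a lymphoid transcription factor gene, had a ratio of 0.357 (0.142 to 0.752; 7 UMIs in 7 cells). The cell division genes Stmn1 and Ccnb2 were lower in all sets too, on 16 and 2 UMIs, with ratios whose intervals reached above 1 (0.373 to 1.11 and 0.0369 to 1.18).

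Itgb7, outside the lists, had the highest set 1 ratio to counterparts of the genes with enough expected UMIs and 1 direction in all sets. It encodes the beta 7 integrin, which pairs with alpha 4 or alpha E chains for homing to and holding in mucosal tissue. Its mean values in members of sets 1 to 6 were 0.653, 0.539, 0.324, 0.254, 0.403 and 0.273. In counterparts they were 0.202, 0.111, 0.193, 0.194, 0.131 and 0.181, and the ranges did not overlap. With an Il7r limit of 1.5 in place of 1, Itgb7 was higher in 4 of 6 sets only, with differences from -0.16 to 0.45. In set 1 the Itgb7 ratio was 3.395 (1.95 to 5.71; 21 UMIs in 11 cells). Itgae, for the alpha E chain, was low (3 UMIs in 2 cells) and higher than in other CD8 T cells in 6 of 6 sets and than in counterparts in 5 of 6. Of 12 residence and homing genes, none was higher than in counterparts in all sets and Itga4 and Cxcr6 were lower in all (Itgb7 is not on that list). Cd69, an early activation and residence gene of that list, had a set 1 ratio of 1.97 (1.47 to 2.61) but was higher than in counterparts in 5 of 6 sets, with differences from -0.19 to 0.41.

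Icos encodes an inducible costimulator of T cells. Its mean values were 0.811, 0.716, 0.920, 0.496, 0.855 and 0.624 in members and 0.606, 0.429, 0.629, 0.362, 0.531 and 0.271 in counterparts. The ranges overlapped, but within each set members were higher. The difference was 0.13 to 0.35, with a median of 0.29, and the set 1 ratio was 1.39 (0.906 to 2.07), an interval that includes equal levels. Tnfrsf4, which encodes the costimulator OX40, had a set 1 ratio of 3.27 (1.79 to 5.73) on 18 UMIs in 6 cells and a median difference of 0.13. Without Foxp3-positive cells the Tnfrsf4 median was 0.03, and that of Icos 0.25. Ctla4, an inhibitory receptor gene, differed from counterparts by 0.00011 to 0.41, with a median of 0.12 that became 0.03 without those cells. Relative to all other CD8 T cells, Ctla4 was lower in members in 4 of 6 sets, with a median difference of -0.03 (-0.14 to 0.35). Havcr2-positive noncycling cells had Ctla4 means of 1.498 to 1.712, above those of members in sets 2, 4, 5 and 6 and below them in sets 1 and 3. Of 7 costimulator genes, Tnfrsf4 and Icos were higher in all 6 sets against counterparts, and Tnfrsf9 was lower in all 6 against other CD8 T cells only. None of the 7 was higher than in other CD8 T cells in all sets. Icos means in Havcr2-positive noncycling cells (0.647 to 0.829) and Xcl1-high cells (0.522 to 0.809) lay within the members' range. Those in cycling cells reached lower (0.362 to 0.692).

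Of 8 genes of interleukin receptors and their signalling outside the rule, 4 were higher than in counterparts in 6 of 6 sets and none was lower in all. They were Il2ra and Il2rg, which encode the alpha chain of the interleukin 2 receptor and the common gamma chain shared with the interleukin 7 receptor, and Il18r1 and Il18rap, the 2 chains of the interleukin 18 receptor. The Il18r1 mean value was 0.804, 0.931, 0.635, 0.967, 0.771 and 0.624 in members and 0.654, 0.616, 0.517, 0.575, 0.568 and 0.499 in counterparts. Its difference was 0.12 to 0.39, and the ranges overlapped between 0.624 and 0.654. Il2rg differed by 0.01 to 0.37 and had a set 1 ratio of 0.983 (0.623 to 1.49), and Il2ra by 0.06 to 0.17. Without Foxp3-positive cells the median of Il2ra went from 0.10 to 0.07, and Il2rg and Il18rap were higher in 5 of 6 sets, which leaves 2 of the 8 genes with 1 direction. At an Il7r limit of 1.5, Il18rap was higher in 4 of 6 sets. Against all other CD8 T cells no gene of this list was higher in all sets, and Il2rb, the beta chain of the interleukin 2 and 15 receptors, was lower in all.

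Naive and memory genes were few in the table, 10 of 20 listed. Against counterparts, 3 were higher in 6 of 6 sets (Ccr7, Dapl1 and Cd28) and none was lower in all. Ccr7 encodes the receptor that guides T cells into lymph nodes. Its mean value was 0.240, 0.244, 0.123, 0.144, 0.124 and 0.112 in members of sets 1 to 6 and 0.0789, 0.0574, 0.0461, 0.0728, 0.0534 and 0.0599 in counterparts, with no overlap. Xcl1-high CD8 T cells had more Ccr7 than members in each of the 6 sets, at 0.197 to 0.329. Havcr2-positive noncycling cells (0.0313 to 0.0511) and cycling cells (0.0614 to 0.0903) had less. In set 1 the Ccr7 level of members rested on 8 UMIs in 4 cells, 5 of them in 1 cell (ratio to counterparts 2.18, 0.869 to 4.84). Cells low in T, myeloid and fibroblast genes, at a median of 20064 UMIs, had a Ccr7 UMI in 1.22%, against 13.3% of members and 3.81% of counterparts. With every cell thinned to 1000 UMIs, Ccr7 was found in 6.67% of members, 2.54% of counterparts and 0.0968% of those background cells. Cd28, the receptor for the main costimulatory signal, had a ratio to counterparts of 1.495 (1.06 to 2.07) in set 1. It differed from counterparts by 0.05 to 0.38, with a median of 0.18 with and without Foxp3-positive cells. Relative to all other CD8 T cells, Cd28 was higher in members in 4 of 6 sets, with a median difference of 0.03 (-0.16 to 0.25).

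Several further genes were higher in members in every set. Klrk1 encodes NKG2D, an activating receptor for stress ligands. Its mean values were 1.58, 1.07, 1.32, 1.42, 1.5 and 1.13 in members and 1.15, 0.810, 1.09, 1.00, 1.28 and 0.958 in counterparts, a difference of 0.17 to 0.44 with overlapping ranges. It was also higher than in other CD8 T cells in 6 of 6 sets, and it was the one gene of 19 NK lectin receptor genes to be so. Within that comparator, Xcl1-high cells had higher Klrk1 means than members in set 2 (1.180 against 1.069) and set 6 (1.222 against 1.129). In sets 1, 3, 4 and 5 they had lower ones. Klrk1 means of Havcr2-positive noncycling cells (0.927 to 1.249) and cycling cells (1.069 to 1.246) overlapped the members' range. Hspa1b, which encodes an inducible heat-shock protein of the Hsp70 family, had a mean of 1.83 to 2.25 in members and 1.58 to 1.87 in counterparts. It was higher in 6 of 6 sets against both comparators, by medians of 0.31 and 0.34, and its set 1 ratio to counterparts was 1.11 (0.920 to 1.32). Txnip, a regulator of glucose uptake, differed from counterparts by 0.00018 to 0.36, with a ratio of 1.49 (1.03 to 2.10). Ctla2a, Tnfaip3 and Traf1, the last 2 being genes of the NF-kappa-B pathway, had median differences of 0.21, 0.18 and 0.20 from counterparts and were also higher than in other CD8 T cells in 6 of 6 sets. Maf, a transcription factor gene, was higher in 6 of 6 against both, by medians of 0.15 and 0.12 on a low level (8 UMIs in 5 members of set 1). Without Foxp3-positive cells its median difference from counterparts was 0.06, and it was higher in 5 of 6 sets. Areg, which encodes the growth factor amphiregulin and was named after its values had been seen, was higher in 6 of 6 against both on 7 UMIs in 3 members.

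Among genes with at least 5 expected UMIs in members, those with the highest set 1 ratios and 1 direction in all sets rested on few counts. Against counterparts, after Itgb7 and Tnfrsf4 they were Slc17a6, a vesicular transporter gene (ratio 2.37, 1.27 to 4.17; 16 UMIs in 6 cells), Trp53inp1, a target gene of p53 (2.23, 1.11 to 4.15; 13 UMIs) and Tent5a (2.15, 1.13 to 3.82; 15 UMIs). Slc26a2, Tspan13 and Nrn1 had ratios of 1.86, 1.64 and 1.62, each with an interval that includes 1. Against other CD8 T cells, those not yet named were Gpr183, a receptor gene for oxysterols that guides lymphocytes (ratio 1.51), Jaml, an adhesion molecule gene (1.49), H2-K1, a class I histocompatibility gene (1.29), and Gm2a (1.32). Of these, the interval of H2-K1 alone excluded equal levels (1.15 to 1.45; 302 UMIs), and its mean value was higher than in counterparts in 5 of 6 sets. At an Il7r limit of 1.5 the set 1 ratios of Slc17a6 and Tent5a changed sign on the log2 scale. Over the sets, Ctla4 was then higher than in counterparts in 4 of 6, and Cd28, Tnfrsf4, Txnip, Tnfaip3, Nrn1 and Tnfsf11 in 5 of 6.

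The remaining lists showed few genes of 1 direction. Of 9 inhibitory receptor and exhaustion genes, Ctla4 and Nrn1 were higher and Tox lower than in counterparts in 6 of 6 sets. Of 13 interferon-stimulated genes none had 1 direction against counterparts, and Ifit1 and Ifit3 were higher and Ifit2 lower than in other CD8 T cells. Of 12 immediate early and heat-shock genes, Hspa1b was higher against both comparators and Egr2 against other CD8 T cells. Of 8 type 17, innate-like and gamma-delta genes, Maf was higher and Tcrg-C2 lower against counterparts. Klrg1, a marker of terminal effector cells, had 5 UMIs in 2 members and differed from counterparts by -0.03 to 0.09.

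**Figure D3:**
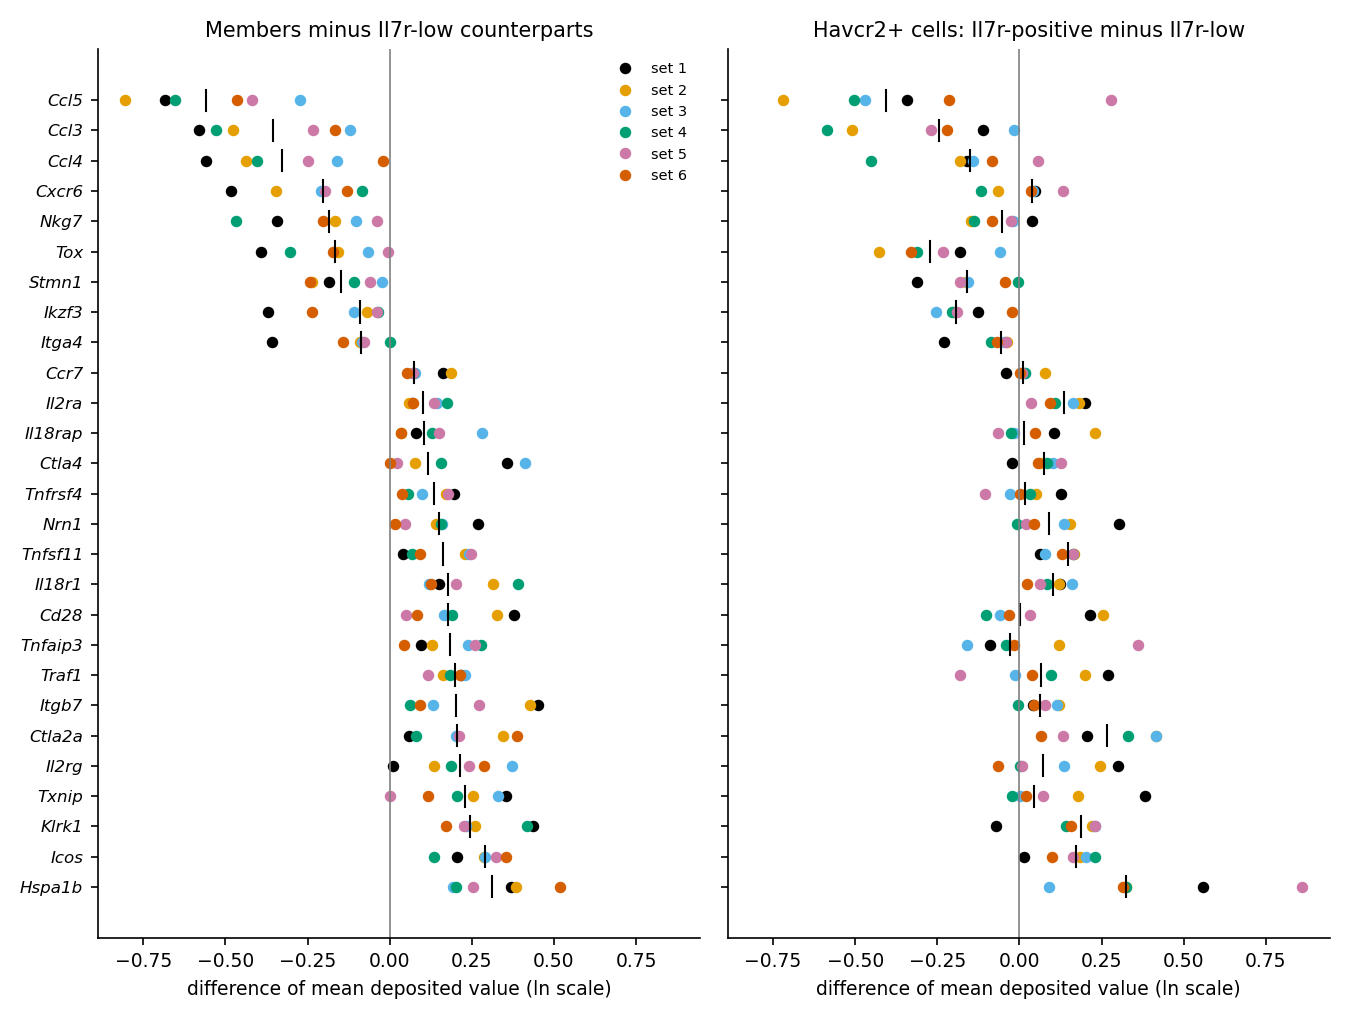
Difference of mean deposited value (natural log scale) for 27 genes, chosen among those with 1 direction in all 6 sets against counterparts; each point is a set and the black line the median of the sets. On the left are members minus Il7r-low counterparts, where every point of a gene lies on the same side of 0 by the choice of genes. On the right the same Il7r split is made in Havcr2-positive cells, none of which is a member: Icos, Il18r1, Il2ra, Tnfsf11, Ctla2a and Hspa1b stay above 0 and Ccl3, Tox, Stmn1, Ikzf3 and Itga4 below 0 in all 6 sets, while Cxcr6, Cd28 and Tnfaip3 have sets on both sides.

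The same Il7r split was then made in cells the rule had left out. Havcr2-positive CD8 T cells within the Xcl1 and cell cycle limits were 447 with an Il7r value of at least 1 and 3352 with a lower one, in the same 6 sets. In set 1 they had median depths of 4632 and 5272 UMIs. Of 1985 genes, 27 were higher in the Il7r-positive cells in all 6 sets (1.36%) and 112 lower (5.64%). Of the 50 genes higher in members than in counterparts in all sets, 8 were among those 27 (16% of the first list, 29.6% of the second). These were Icos, Il18r1, Il2ra, Tnfsf11, Ctla2a, Hspa1b, Ifitm1 and Tent5a; Ifitm1 is an interferon-induced membrane protein gene. Icos differed there by 0.01 to 0.23 and Hspa1b by 0.09 to 0.86. Of the 80 genes lower in members, 12 were among the 112 (15% and 10.7%). Those with a mean value above 0.1 in members were Ccl3, Tox, Ikzf3, Itga4, Stmn1, Sh2d2a, Dtymk and Chaf1a. Tox differed by -0.43 to -0.06 and Ccl3 by -0.59 to -0.02. Over all sets the median difference had the same sign for 29 of the 50 and 63 of the 80 genes. The matching share over all 1985 genes was not computed, so nothing is concluded from these counts.

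Other genes had no single direction over the 6 sets in the Havcr2-positive cells. Cxcr6 had a median difference of 0.04 there, and was lower in the Il7r-positive cells in 2 of 6 sets. Ccl5 and Ccl4 were lower in 5 of 6 sets, with medians of -0.41 and -0.15. Itgb7, Klrk1 and Ccr7 were higher in 5 of 6 sets, by medians of 0.06, 0.19 and 0.01 (0.20, 0.25 and 0.07 in members against counterparts), Cd28 in 3 and Maf in 1. Whether the size of the Il7r difference itself differs between the Havcr2-low and Havcr2-positive cells was not tested.

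**Figure D4:**
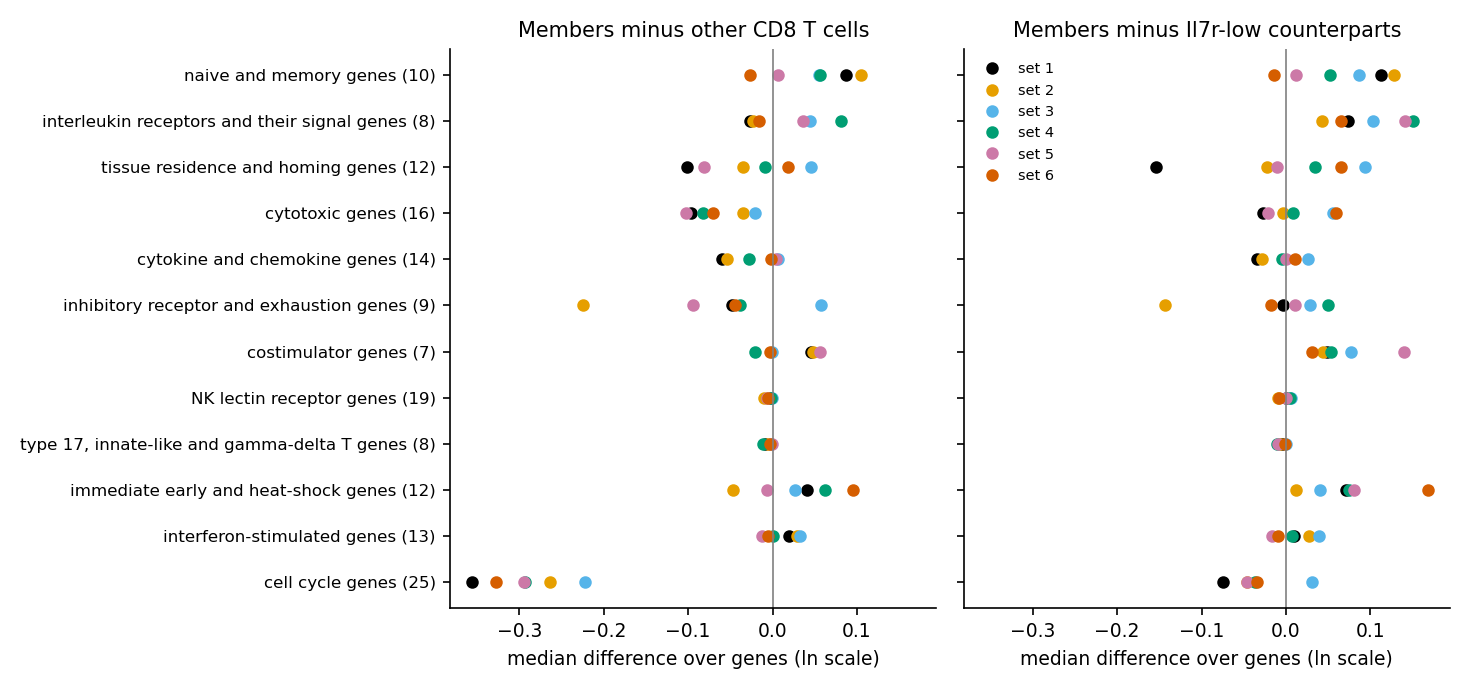
Median over the genes of each list (number in the table in brackets) of the difference in mean deposited value, on the natural log scale, with a point per set: members minus other CD8 T cells on the left and minus Il7r-low counterparts on the right. Cell cycle genes lie below -0.2 in all sets on the left and cytotoxic genes below 0, while on the right cytotoxic genes scatter around 0 and costimulator and interleukin receptor genes lie above 0 in all 6 sets.

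The members were not uniform. A Ccr7 value of at least 1 was found in 24 of 365 members (6.58%) and in 50 counterparts (2.13%). The share of members was 12.9%, 9.68%, 7.02%, 5.56%, 4.08% and 4.26% in sets 1 to 6, each above the 1.81% to 3.33% of counterparts. It rested on 2 to 6 cells a set. These 24 cells had a mean Gzmb value of 0.196, against 1.14 in the rest of the members. Their Ccl5 mean was 1.03 against 1.87, Cxcr6 0.622 against 1.82, Prf1 0.552 against 0.986 and Pdcd1 1.45 against 1.61. Gzmb, Ccl5 and Cxcr6 were lower in these cells in each of the 6 sets, but Prf1 was higher in set 4 (0.826 against 0.755), and Pdcd1 in set 3 (2.36 against 1.90) and set 4 (1.67 against 1.43). Their mean Il7r value was 1.84, and that of the rest 1.70. Without cells at 1 or more for Ccr7, Ccl5 was still lower than in counterparts in 6 of 6 sets (median -0.52), as were Ccl3 (-0.33) and Cxcr6 (-0.14). Nkg7 and Tox were then lower in 5 of 6, with medians of -0.17 and -0.20. Icos, Il18r1, Klrk1, Hspa1b and Itgb7 were higher in 6 of 6 without those cells too.

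**Figure D5:**
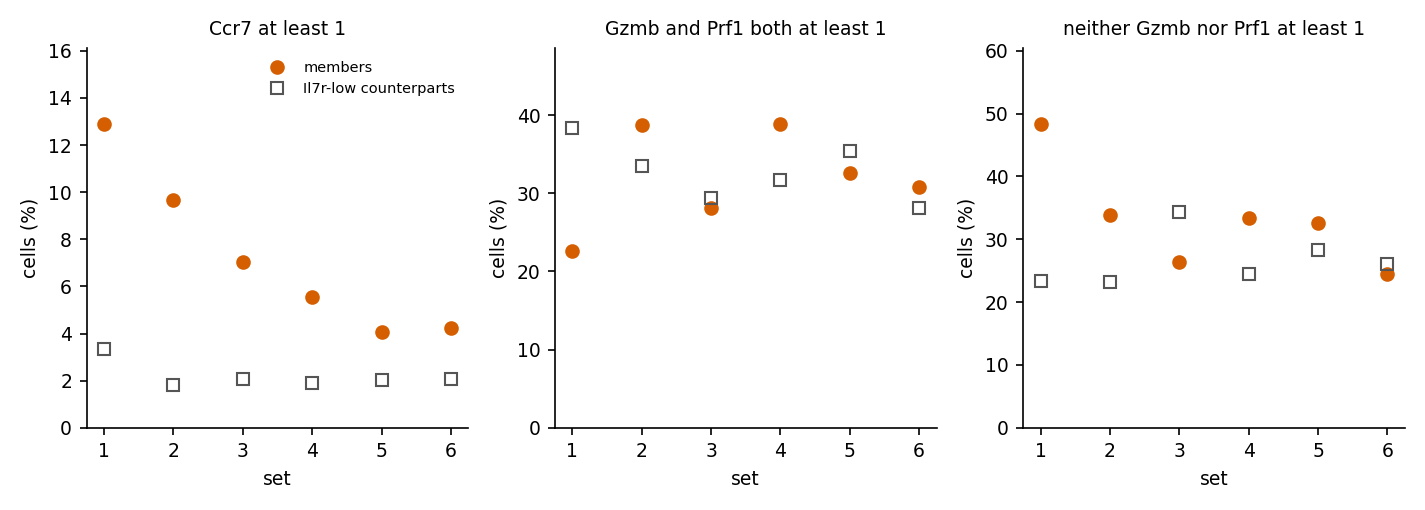
Percentage of cells, by set, with a Ccr7 value of at least 1 (left), with Gzmb and Prf1 both at least 1 (middle) and with neither (right), for members (filled circles) and Il7r-low counterparts (open squares). The left shares of members (4.08% to 12.9%) lie above those of counterparts (1.81% to 3.33%) in every set, while the other 2 shares overlap.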

How the data were processed

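Dissociated tumours were sequenced on the DNBelab C4 platform, and STAR 2.7.2b is named in the submitters' processing notes with the builds GRCh38 and mm10. Symbols are mouse, and no coordinates are given. The authors deposited 1 table of values on the natural log scale (ln of 1 plus UMIs per 10000 in set 1, found from the values themselves), of 2000 genes, 1984 of which are symbols of GENCODE M21. All 53528 columns of cells are tied to no sample.

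UMI totals were the commonest whole number (tolerance 1e-06, at least 2 agreeing values above 0.02) among 10000/(exp(value) - 1). This gave totals for 100% of set 1 cells (1001 to 261833 UMIs, with 15% of UMIs in table genes), and 12.5% to 29.5% of cells per set elsewhere. Set 1 doublets were called with Scrublet in scanpy 1.11.5 (expected rate 6%; 91 of 9370 cells, 0.971%) and left out of ratios, which left 30 members; other sets keep them. Ratios are of CPM (pseudocount 1 CPM on the log2 scale) with exact conditional Poisson intervals at 95%, covering counting error only; a gene at 0 UMIs was set to 3. The steps were tested on simulated data. Alternatives were scaling, thinning, depth matching, pseudocount, doublets, filters, rule limits, comparator and leaving out sets.

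The members, lists and comparators were chosen with earlier results of these data known, and the limits for CD4, macrophage and background classes after the data were seen; a class low in T, myeloid and fibroblast genes replaced the planned hepatoma class. Named genes were the 12 highest and 12 lowest in set 1 against other CD8 T cells and the 8 of each against counterparts with 1 sign in all 6 sets, the 4 with the largest log2 ratio per list, and Ccr7, Gzmb, Prf1, Ifng, Pdcd1, Ctla4 and Klrg1; some genes of the rule and the lists are not reported here. Other genes named with values, and the Havcr2-positive split, were chosen after their values were seen. The list tests planned as medians are described with no test.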

Additional observations from a re-analysis of the deposited data

Results flagged for a closer look

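In 159 groups of 6 set values (differences of named genes and of lists), 6 had an extreme set far from the other 5 by Dixon's 95% criterion. Chance gives about 1 in 20. The difference of Slc26a2, a sulphate transporter gene, was 0.186 from other CD8 T cells in set 1 (other sets -0.01 to 0.03) and 0.267 from counterparts (0.03 to 0.12). Tcrg-C2 differed from counterparts by -0.431 in set 1 (-0.13 to -0.05 elsewhere). Ikzf3, a lymphoid transcription factor gene, differed from other CD8 T cells by -0.382 in set 1 (-0.14 to -0.10), and Ccnb2, a mitotic cyclin gene, from counterparts by -0.138 (-0.03 to -0.01). The median difference of inhibitory receptor and exhaustion genes from counterparts was -0.143 in set 2 (-0.02 to 0.05). Of the 6, 5 were in set 1, which has the fewest members (31) and unaltered values; what this contributes was not tested.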

How the results depend on the processing

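No paired analysis was possible because the table's columns carry no replicate number of any labelled sample. In set 1, 11 of 406 tested genes were at least 2-fold higher than in other CD8 T cells. With cells thinned to 1000 UMIs there were 0 of 172. With no filter there were 171 of 1463, and with at least 20 expected UMIs 1 of 147. At least 2-fold lower were 83 of 406. Thinning gave 30 of 172, the stricter filter 21 of 147 and an Il7r limit of 2 gave 33 of 137. Against counterparts 7 of 348 genes were higher, and 14 of 348 by mean over cells. Thinned they were 2 of 173, and with no filter 82 of 985. The stricter filter left 0 of 148 and an Il7r limit of 2 left 4 of 140. Lower than in counterparts were 31 of 348. Thinning gave 15 of 173, no filter 72 of 985 and the stricter filter 7 of 148. The number of tested genes changes with the setting, so these counts can be read only beside it. Medians of list log2 ratios thinned were 0 for cytokine and chemokine genes, 0.88 for costimulator genes and 0.051 for interferon-stimulated genes. The unthinned median of cell cycle genes was -0.39 with counterparts as comparator (-1.69 against other CD8 T cells). At an Il7r limit of 1.5, genes higher than in other CD8 T cells in every set were 19. Leaving out a set in turn gave 48 to 65 higher (43 with all sets) and 484 to 528 lower genes (425); with counterparts as comparator 80 were lower. Against counterparts, leaving out a set gave 60 to 80 higher (50) and 113 to 161 lower genes (80).

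The share of members was 4.46%, 2.18% and 1.00% at Il7r limits of 0.5, 1.5 and 2, 8.14% without the Havcr2 limit, 4.36% without the Xcl1 limit, 4.11% without the cell cycle limit, 0.682% of all cells, and 3.5% to 3.82% leaving out a set. A rule on UMI counts gave 5.52% in set 1 and a rule on thinned cells 3.68%, 15 of whose 26 cells were members. Thinned Il7r levels were 27.4 CPM in other CD8 T cells, 0 in counterparts, 147.5 in conventional CD4 T cells and 1.55 in the background cells. Thinned shares of members with a UMI were 26.7% for Ifng, 40.0% for Pdcd1 and 56.7% for Ctla4.

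Of 1332 values of single genes under an alternative, 1193 kept their place, 130 moved and 9 changed sign: Cdk1 against counterparts thinned (0.51); Slc17a6 at an Il7r limit of 1.5 (-0.35 against other CD8 T cells, -0.56 against counterparts); Tcrg-C2 at a limit of 2 (0.72 and 0.16); and Tent5a thinned (-0.21 and -0.34) and at 1.5 (-0.094 and -0.15). Causes were not tested. The 30 to 31 members of set 1 limit the UMI ratios.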
